A study of Mus musculus with 6 samples.

Results

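Chromatin accessibility at 10 neuronal genes of the cytoskeleton, axon and synapse was followed at sites of the GC-box binding factor SP1 by ATAC-seq, in which the Tn5 transposase inserts adapters into open chromatin. The groups were embryonic stem cells (ESC) of the pluripotent mouse line R1 and neural progenitor cells (NPC) that also carry the label R1, with 3 libraries of each group and 6 in all. No treatment or genetic change is named in the labels for either group, and the labels used here describe neither how the NPC were derived nor whether the 3 libraries were separate cultures. The values are those of the authors' deposited table, which compares NPC with ESC at 9001 high-confidence SP1 sites on chromosome 1, chromosome 10 and the first part of chromosome 11. A site belonged to a gene when its midpoint lay inside the gene or within 50 kb of either end (RefSeq, assembly GRCm38.p6, which is mm10). By this rule all 10 genes had sites, 149 of the 9001 (1.66%), with 82 sites at 6 genes of chromosome 1, 50 at 3 genes of chromosome 10 and 17 at Camk2b on chromosome 11. No values per library were used, and each site is given by its log2 fold change (NPC over ESC) with the standard error (SE) of the authors' fit.

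The genes were proposed with results of this comparison in view, so their counts and fold changes are descriptions and support no claim about neuronal genes in general. A site was called higher or lower in NPC when its adjusted p as the authors deposited it was below 0.05. No column states the direction, which was taken from the table's name. Of 51 sites at 7 pluripotency genes 28 were lower and 10 higher in NPC by that reading, and of 20 sites at 3 neural progenitor genes (Fabp7, Meis1 and Pou3f3) 13 were higher and 2 lower. Sites of glial markers (Gja1 and S100b) counted 1 higher and 4 lower of 9, and those of mesenchymal markers (Fn1, Col3a1 and Prrx1) 2 higher and 11 lower of 18. Over all 9001 sites 22.8% were called higher and 32.6% lower. The marker lists were chosen with earlier results of these data known, so their counts are no independent check of the direction. Neuron markers in the listed regions were Map2 and Syt1 themselves, and what share of neurons the NPC cultures held was not tested.

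Neurons are built around long processes. Microtubules, bundled by proteins such as MAP2 in dendrites, serve as tracks on which kinesins including KIF1A carry synaptic vesicle precursors along the axon, and ankyrin-G, the product of Ank3, anchors channels and adhesion molecules at the axon initial segment. At the synapse, calcium entering through channels such as the R-type channel of Cacna1e triggers release through the calcium sensor synaptotagmin-1 (Syt1), and in the receiving cell it activates the kinase CaMKII, one subunit of which is encoded by Camk2b. Progenitors divide and hold few of these structures, and many of the genes are very long, with much of their regulatory DNA in introns. The accessibility of a site does not measure the expression of the gene that holds it.

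RefSeq promoter windows were available for 8 of the 10 genes, and SP1 sites touched a window of 3 of the 8. The windows of these 3 genes are shown because their GC boxes differed while none of the 3 sites was called. The windows run 5′ to 3′ in the sense of the gene, from 250 bases before to 50 bases after the RefSeq start (GRCm38.p6), with GGGCGG, the core of the GC box that SP1 recognises, in capitals. Map2 (chr1:66175079-66175378, plus strand), Camk2b (chr11:6065699-6065998, minus strand) and Nmnat2 (chr1:152954851-152955150, plus strand) read as follows.
Map2: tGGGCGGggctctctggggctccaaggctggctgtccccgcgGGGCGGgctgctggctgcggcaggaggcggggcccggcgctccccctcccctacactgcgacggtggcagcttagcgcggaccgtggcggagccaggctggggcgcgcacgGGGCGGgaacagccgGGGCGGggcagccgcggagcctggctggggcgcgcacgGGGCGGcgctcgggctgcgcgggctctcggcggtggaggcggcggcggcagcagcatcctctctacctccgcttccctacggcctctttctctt
Camk2b: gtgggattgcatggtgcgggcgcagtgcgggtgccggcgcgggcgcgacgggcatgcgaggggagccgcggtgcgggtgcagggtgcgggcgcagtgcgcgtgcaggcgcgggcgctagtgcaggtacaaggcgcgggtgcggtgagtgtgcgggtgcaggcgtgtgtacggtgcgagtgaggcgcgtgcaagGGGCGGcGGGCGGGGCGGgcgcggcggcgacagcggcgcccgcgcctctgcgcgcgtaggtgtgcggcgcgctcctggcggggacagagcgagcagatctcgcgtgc
Nmnat2: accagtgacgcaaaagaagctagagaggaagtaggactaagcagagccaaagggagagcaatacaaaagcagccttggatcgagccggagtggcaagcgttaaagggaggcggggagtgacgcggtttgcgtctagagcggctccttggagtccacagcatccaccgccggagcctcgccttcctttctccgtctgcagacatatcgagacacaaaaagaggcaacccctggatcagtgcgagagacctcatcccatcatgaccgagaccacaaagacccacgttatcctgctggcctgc

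GGGCGG was searched on both strands. It stood 5 times in the Map2 window and 3 times in that of Camk2b, always on the sense strand, and not in that of Nmnat2. GC content was 77.7% at Map2, 77.3% at Camk2b and 56.3% at Nmnat2. The longer GGGGCGGGG, each copy of which contains GGGCGG, stood once at Map2 and in neither of the others. Of 32851 RefSeq promoter windows of the same length 35.7% held GGGCGG and 11.4% GGGGCGGGG, and of the 1290 windows touched by a listed SP1 site 64.0% and 21.6% did. Among the other members, 1 of the 2 promoter windows of Syt1 held a single GGGCGG, and the windows of Kif1a, Cacna1e, Astn1 and Tnr held none. Ank3 and Nav3 were not in the promoter table. A match is a run of letters and not a measured binding site.

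The Map2 start had the strongest site of these 3. In the authors' deposited table the site over the Map2 window (chromosome 1, 66174898 to 66175398) had a mean signal of 33.4, the normalized count averaged over the libraries, which lies at the 94.7th percentile of the 9001 sites. Its log2 fold change per the authors' deposited table was 0.19 ± 0.26 (SE, adjusted p = 0.492). At Nmnat2 the site over the promoter window had a mean signal of 7.88 and a log2 fold change of 0.09 ± 0.47 (adjusted p = 0.850) per the authors' deposited table. The Camk2b site, whose midpoint lay 693 bp inside the annotated gene start, overlapped 216 of the 300 bases of its window and had a mean signal of 7.48 and 1.11 ± 0.64 on the log2 scale (adjusted p = 0.0598) per the authors' deposited table. Map2 had 5 copies, Camk2b 3 and Nmnat2 none, and all 3 changes were within 2 standard errors of 0. The windows were shown because none of these sites was called, so no relation of motif number to change is read from them. A site that was not called is not thereby shown to be unchanged.

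The 149 member sites held more calls of higher than of lower accessibility in NPC. Of them 53 (35.6%) were higher and 37 (24.8%) lower, and 59 were not called. Over all 9001 sites 22.8% were called higher and 32.6% lower at the same threshold, 55.4% in either direction. With fold changes centred on the median of all sites and p recomputed, these shares were 23.1% and 22.8%, and the members had 50 higher and 29 lower. Since the genes were chosen from this comparison, nothing is read from that difference. The median log2 fold change was 0.21 at member sites and -0.29 at all sites. Called member sites changed by a median of 3.27 upward and -3.31 downward on the log2 scale, and the medians over all sites were 3.03 and -3.24. The members ranged from -6.67, inside Nmnat2, to 5.93, inside Camk2b, per the authors' deposited table. Their mean signal had a median of 5.33 (range 1.24 to 48.6), and the median of all sites was 5.78. Member genes with their flanks held 3.22 sites per 100 kb, where the listed regions as a whole held 2.67.

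**Figure D1:**
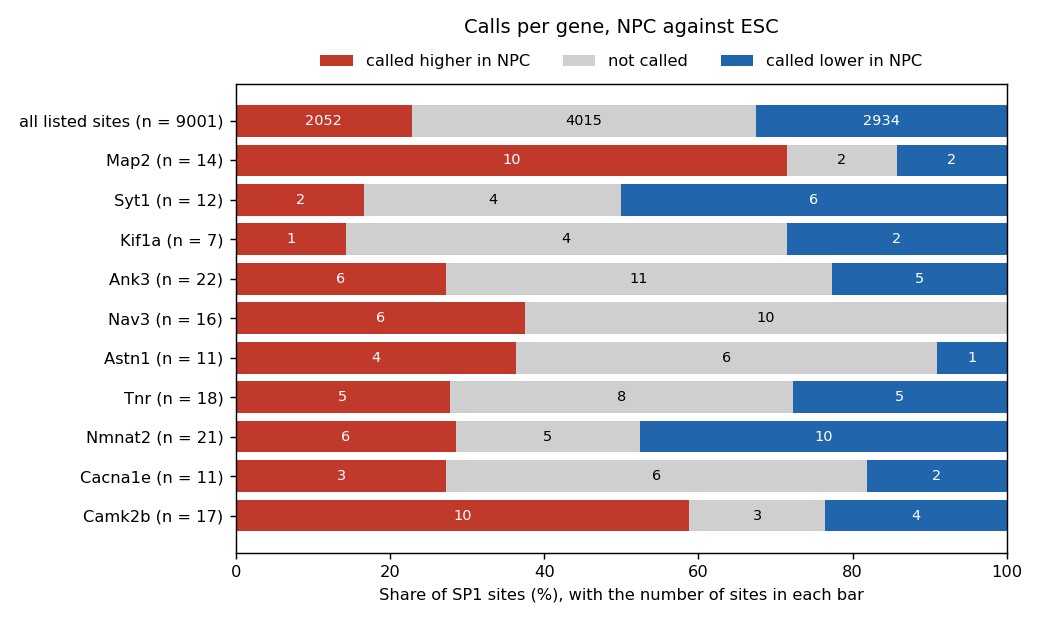
Share of SP1 sites called higher in NPC (red), not called (grey) and called lower (blue) for all listed sites and for each gene, with numbers of sites printed in the bars. Map2 and Camk2b each had 10 sites called higher, Nmnat2 had 10 called lower and Nav3 none called lower.

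The counts called in each direction varied from gene to gene, and differences between genes were not tested. Over all listed sites 22.8% were called higher and 32.6% lower. Map2 (10 higher, 2 lower of 14 sites), Camk2b (10 and 4 of 17), Nav3 (6 and 0 of 16) and Astn1 (4 and 1 of 11) had more sites higher in NPC. Nmnat2 (6 higher, 10 lower of 21) and Syt1 (2 and 6 of 12) had more sites lower. Tnr had 5 in each direction among 18 sites, Ank3 6 and 5 among 22, Cacna1e 3 and 2 among 11, and Kif1a 1 and 2 among 7. Tnr (27.8% in each direction), Ank3 (27.3% higher, 22.7% lower) and Kif1a (14.3% and 28.6%) lay near the shares of all listed sites. No direction is read for them. Gene medians ran from -2.31 at Nmnat2 to 2.63 at Camk2b on the log2 scale. Of the 1034 protein-coding genes with at least 7 sites by the same rule, Camk2b ranked 11th and Map2 14th from the top by median log2 fold change, Astn1 41st and Cacna1e 60th. Tnr ranked 242nd, Nav3, whose median was 0.02, 422nd, Ank3 719th, Kif1a 766th, Syt1 836th and Nmnat2 964th. The members were chosen with results of this comparison in view, so their ranks are descriptions. Windows of neighbouring genes overlap, so these ranks are not independent.

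**Figure D2:**
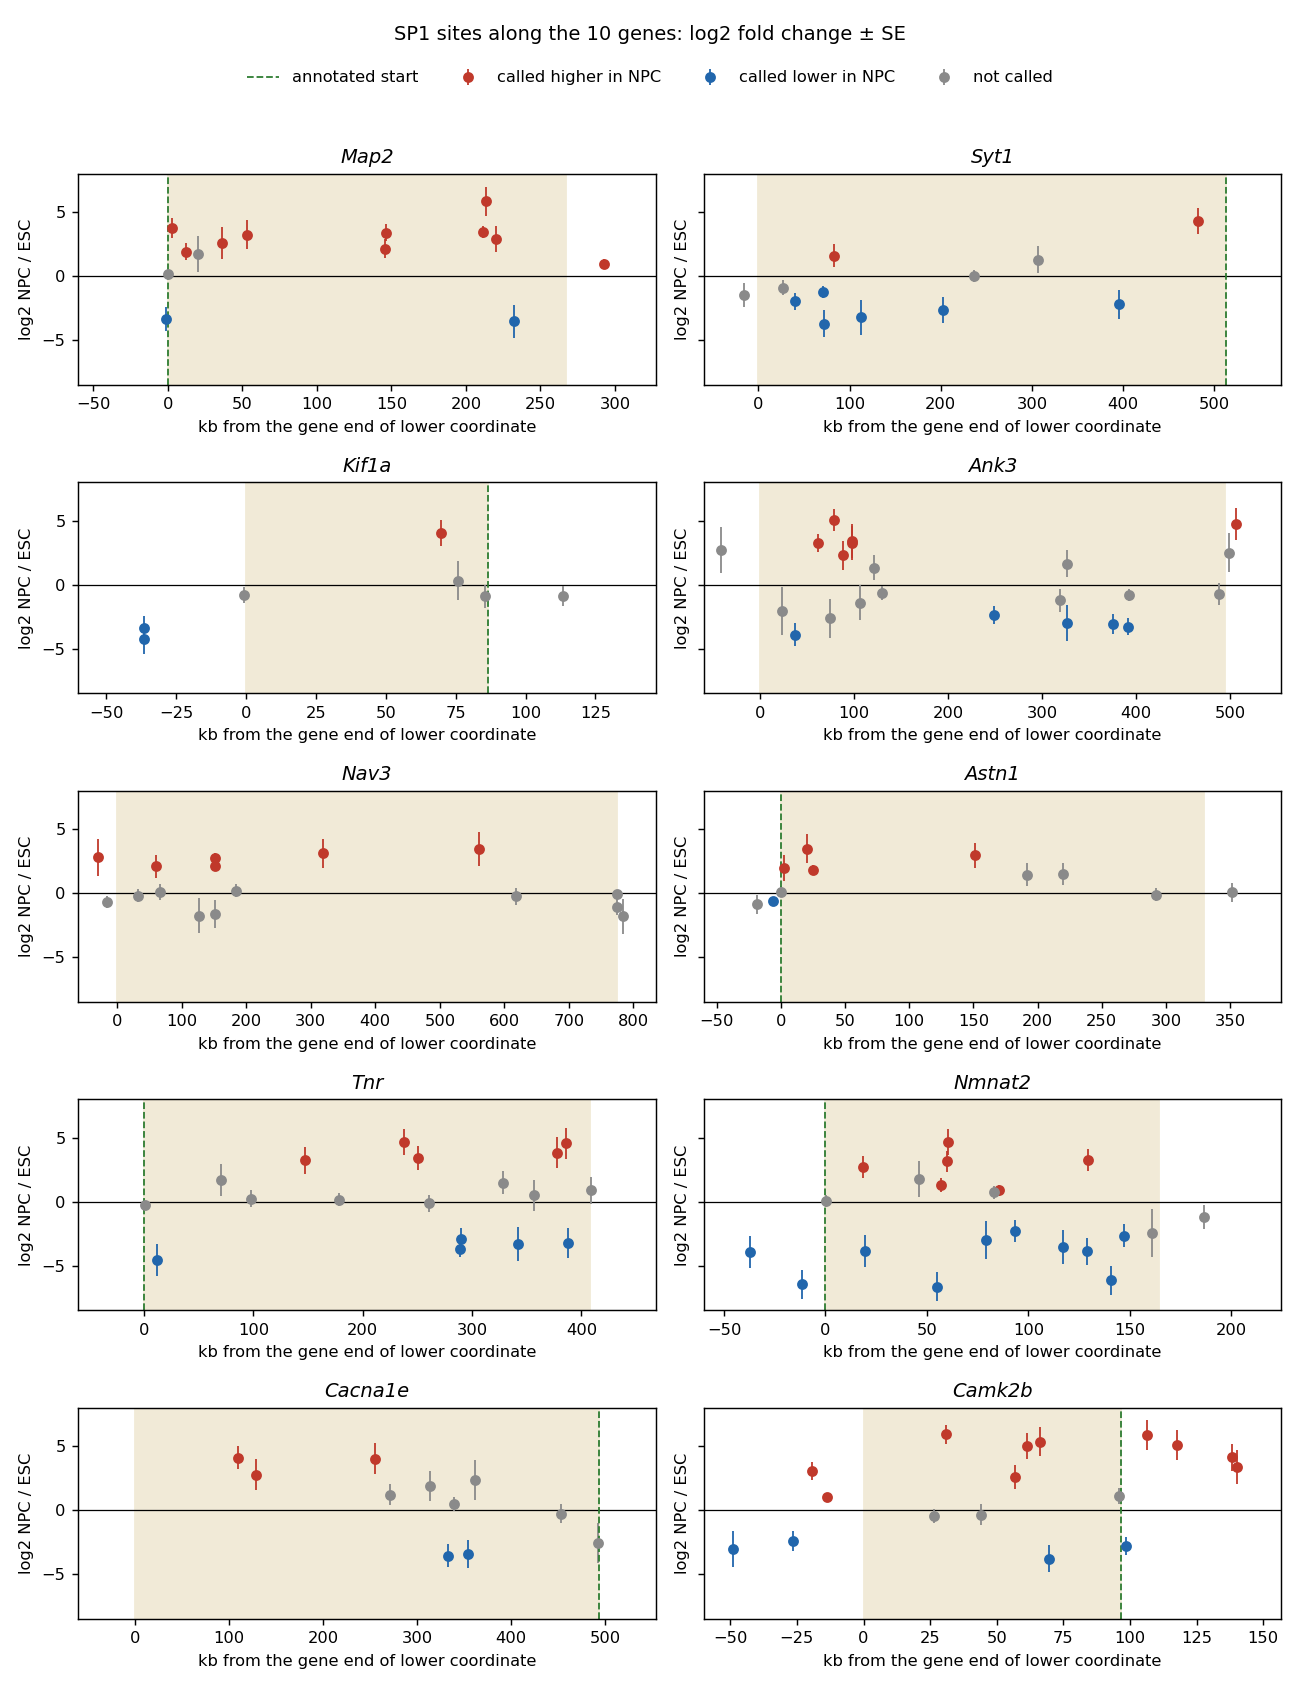
Log2 fold change (NPC over ESC) of every SP1 site against its distance in kb from the gene end of lower coordinate, 1 panel per gene. Points are sites, bars are ± SE of the authors' fit, shading marks the gene body and the dashed line its annotated start where the tables give the strand. In Map2 the sites called higher run through the gene body, and in Nmnat2 called sites of both directions are intermingled. In Ank3 the called sites of the gene body from 61.1 to 97.6 kb are higher and those from 248 kb on lower.

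Map2, on chromosome 1 from 66175202 to 66442583 (plus strand), encodes the microtubule-associated protein of dendrites. Within its gene body 9 of 11 sites were called higher in NPC, from 2.71 kb to 220 kb past the start. The site of smallest adjusted p among them, 212 kb from the start at 66386675 to 66387175, had a mean signal of 24.1 and a log2 fold change of 3.47 ± 0.49, 11.1-fold (adjusted p = 8.10e-11), per the authors' deposited table. A neighbour 1831 bp farther on had 5.86 ± 1.16 at a lower mean signal of 9.75 per the authors' deposited table. Another pair, 146 and 147 kb from the start, had 2.15 ± 0.74 and 3.41 ± 0.63 per the authors' deposited table. The second of that pair (mean signal 13.8) was in the top 25% of all sites by signal, and the 3 sites of Map2 in that class away from the gene end were all higher. Among these 3 is the flank site at Unc80 (mean signal 25.7), described below. The sites either side of the start differed in direction. In the authors' deposited table the site 1.43 kb before it was lower (-3.33 ± 0.93, adjusted p = 0.000757), the one over it was not called, and the one 2.71 kb into the gene was higher (3.74 ± 0.79). The other fall, 34.8 kb before the far end, had a low mean signal of 3.50 and -3.54 ± 1.30 per the authors' deposited table (adjusted p = 0.00573). The flank site 25.6 kb past the gene lies on the promoter window of Unc80, a gene of the NALCN channel complex, and rose by 0.98 ± 0.35 per the authors' deposited table.

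Nav3 encodes neuron navigator 3, which binds microtubule plus ends, and lies on chromosome 10 from 109681260 to 110455722. No site at Nav3 was called lower. Its 6 rises included an overlapping pair about 152 kb from the end of lower coordinate, at 109832601 to 109833353. In the authors' deposited table these had mean signals of 24.3 and 33.9 and log2 fold changes of 2.15 ± 0.42 and 2.74 ± 0.40 (adjusted p = 3.04e-06 and 4.84e-10). A site just before the pair had -1.64 ± 1.09 at a mean signal of 3.16 per the authors' deposited table and was not called. The other rises at Nav3 had mean signals of 2.27 to 4.79 and log2 fold changes of up to 3.45 per the authors' deposited table. A site 16.1 kb outside the gene, with a mean signal of 12.3 and -0.69 ± 0.48 per the authors' deposited table, was not called. At the end of higher coordinate a strong site 17 bp from the gene (mean signal 24.8) stood at -0.07 ± 0.30, and one that overlaps it (mean signal 7.59) at -1.07 ± 0.64, both uncalled per the authors' deposited table.

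Ank3, the gene of ankyrin-G, on chromosome 10 from 69533486 to 70027436, held 22 sites, the most of the 10 genes. Called sites of the 2 directions lay in different stretches of the gene. Between 61.1 and 97.6 kb from the end of lower coordinate 5 sites were higher and none lower (the last 2 of them overlap), with 1 further site there uncalled at -2.64 ± 1.52 per the authors' deposited table. The strongest of them, at 69611831 to 69612331, had a mean signal of 20.4 and rose 33.0-fold (5.04 ± 0.85, adjusted p = 4.12e-08) per the authors' deposited table. Between 248 and 391 kb, 4 sites were lower and none higher, led by -3.28 ± 0.68 at 69924368 to 69924868 (mean signal 10.8, adjusted p = 1.19e-05) per the authors' deposited table. The next site toward the far end, with a mean signal of 12.3, had -0.82 ± 0.49 per the authors' deposited table and was not called (adjusted p = 0.0720). Inside the stretch of falls, sites at 319 and 326 kb had -1.23 ± 0.91 and 1.64 ± 1.07 per the authors' deposited table and were not called. Both stretches were bounded by their outer called sites after the values were seen. The fifth fall (-3.92 ± 0.89) lay 37.6 kb into the gene, before the stretch of rises, and the sixth rise (4.75 ± 1.23) 12.6 kb outside its far end, per the authors' deposited table. Inside the gene alone the count was 5 higher and 5 lower, and among sites of at least median signal it was 2 higher and 4 lower. No listed site lay within 1 kb of either end.

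Kif1a, the kinesin-3 motor gene, on chromosome 1 from 93015455 to 93102039 (minus strand), had the fewest sites, 7. Its single rise, of 4.06 ± 1.04 (16.7-fold, adjusted p = 0.000209) per the authors' deposited table, lay inside the gene and 2.82 kb from a second RefSeq start within the gene. The site 988 bp inside the annotated start (mean signal 10.5) had -0.92 ± 0.88 and the one 822 bp past the other end -0.81 ± 0.61 per the authors' deposited table. Both falls, -4.24 ± 1.22 and -3.38 ± 0.94 per the authors' deposited table, overlap each other on the promoter window of Gpr35, a G protein-coupled receptor gene, 36.4 kb or more from Kif1a. Within 10 kb of the gene the count was thus 1 higher and 0 lower, where the 50 kb window gave 1 and 2.

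Astn1 and Tnr encode proteins that work outside the cell or at its surface: astrotactin-1, an adhesion protein of neuron migration along glia, and tenascin-R, a matrix glycoprotein of the nervous system that oligodendrocytes and some neurons make. At Astn1, on chromosome 1 from 158362102 to 158691786 (plus strand), 4 sites of 7 in the gene body were higher and none lower. Of the rises 3 lay in the first 25 kb, and the strongest by signal (26.0) rose by 1.85 ± 0.36, 3.60-fold (adjusted p = 2.67e-06), per the authors' deposited table. The others rose by 1.99 ± 1.04, 3.49 ± 1.11 and 2.96 ± 0.98 per the authors' deposited table. The start itself was uncalled, with 0.13 ± 0.46 at a site 533 bp into the gene per the authors' deposited table. The strongest site near the gene (mean signal 39.9) lay 5.73 kb before the start, at the gene Brinp2, and was lower by a small amount, -0.61 ± 0.29 (1.53-fold lower, adjusted p = 0.0304), per the authors' deposited table.

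Tnr, on chromosome 1 from 159523729 to 159931729 (plus strand), had rises and falls of similar size, with medians of 3.84 and -3.31 on the log2 scale. The rise of smallest adjusted p, 237 kb from the start, was 4.70 ± 1.01 (mean signal 12.1, adjusted p = 1.12e-05) per the authors' deposited table. The fall of smallest adjusted p, 289 kb from the start, was -3.68 ± 0.67 (mean signal 14.3, adjusted p = 6.01e-07) per the authors' deposited table, and a site that overlaps it fell too. The strongest site of the gene body, 147 kb from the start with a mean signal of 25.4, rose by 3.23 ± 1.03 (adjusted p = 0.00250) per the authors' deposited table. Its SE was large for its signal, since listed sites with a signal within 10% of it had a median SE of 0.35. The same held elsewhere. By that comparison the strongest site of Camk2b had an SE of 0.73 against 0.26. The largest fall at Nmnat2 had 1.14 against 0.42, and the strongest rise at Ank3 0.85 against 0.38. At 386 and 388 kb a rise of 4.56 ± 1.24 and a fall of -3.22 ± 1.18 lay 1158 bp apart per the authors' deposited table. The site 534 bp past the start (mean signal 21.4) had -0.22 ± 0.32 and the one 481 bp past the far end 0.88 ± 1.04 per the authors' deposited table, neither of them called.

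Nmnat2, the enzyme that makes NAD in axons and whose loss starts axon degeneration, lies on chromosome 1 from 152954781 to 153119266 (plus strand). Its sites were dense, at 7.94 per 100 kb, and its 3 largest falls exceeded those of every other member. Inside the gene, 54.8 kb from its start, the authors' deposited table lists a site (153009306 to 153009806, mean signal 17.5) with -6.67 ± 1.14. A site 11.6 kb before the start had -6.47 ± 1.14 (mean signal 15.4) and one 141 kb into the gene -6.17 ± 1.15 (mean signal 12.2) per the authors' deposited table. These 3 had adjusted p-values of 2.23e-08, 5.39e-08 and 2.59e-07 per the authors' deposited table. Past the first of them, at 56.9, 59.8 and 60.2 kb, 3 sites rose in a row by 1.30 ± 0.52, 3.18 ± 0.82 and 4.69 ± 1.01 per the authors' deposited table, the last pair overlapping. Sites of opposite direction also lay 881 bp apart at 18.4 and 19.2 kb (2.70 ± 0.87 and -3.85 ± 1.24) and 963 bp apart at 129 and 130 kb (-3.90 ± 1.05 and 3.27 ± 0.85) per the authors' deposited table. The site of highest mean signal, 18.3, rose by 0.88 ± 0.41 (adjusted p = 0.0249) per the authors' deposited table. Among sites of at least median signal the gene had 5 rises and 4 falls, the reverse of the order over all its sites.

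Syt1, the gene of the vesicle calcium sensor, lies on chromosome 10 from 108497650 to 109010980 (minus strand), and its called sites were mostly lower. Falls lay from 118 to 473 kb from the start, and the leading one, 72.4 kb from the end of lower coordinate, had -3.71 ± 1.08 (mean signal 6.05, adjusted p = 0.000906) per the authors' deposited table. A site 1807 bp from it with the highest mean signal at the gene, 16.4, fell by a smaller amount, -1.24 ± 0.44, per the authors' deposited table. The site nearest the start was the largest rise. It lay 31.1 kb into the gene and rose 20.4-fold (4.35 ± 1.02, adjusted p = 5.98e-05) per the authors' deposited table. The second rise, 1.62 ± 0.88, was close to the threshold (adjusted p = 0.0479) per the authors' deposited table. One of the falls (-2.62 ± 1.02 per the authors' deposited table) lies on the promoter window of Gm5136, a gene inside Syt1. The excess of falls depended on the setting. At adjusted p below 0.01 Syt1 had 1 site higher and 3 lower (25%) of 12, where 23.2% of all listed sites were lower. With fold changes centred on the median of all sites and p recomputed it again had 1 and 3, beside 22.8% lower over all listed sites.

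Cacna1e, which encodes the pore subunit of the R-type calcium channel, lies on chromosome 1 from 154390806 to 154884785 (minus strand). The 3 sites nearest the annotated start, 0.906, 41.1 and 132 kb from it, had -2.54 ± 1.57, -0.29 ± 0.75 and 2.36 ± 1.60 per the authors' deposited table and were not called. Rises lay 238 kb or more from the annotated start of this gene of 494 kb. At 384, 365 and 238 kb from the annotated start they were 4.12 ± 0.87 (mean signal 10.9, adjusted p = 1.17e-05), 2.77 ± 1.21 and 4.02 ± 1.22 per the authors' deposited table. The RefSeq promoter window listed for Cacna1e lies well inside the gene, and 1 of the 2 falls lay 2.22 kb from that start, at -3.57 ± 0.92 (adjusted p = 0.000251) per the authors' deposited table. The other fall, -3.47 ± 1.09, lay 19.5 kb to its other side per the authors' deposited table.

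Camk2b, which encodes the beta subunit of the synaptic kinase CaMKII, lies on chromosome 11 from 5969629 to 6066357 (minus strand) and had the densest sites, 8.64 per 100 kb. Inside the gene, 65.8 kb from the start at 6000343 to 6000843, stood the strongest of all 149 member sites, with a mean signal of 48.6 (97.7th percentile of all sites). It rose 61.2-fold in NPC (5.93 ± 0.73, adjusted p = 4.14e-14) per the authors' deposited table, the largest rise and the smallest adjusted p of the members. Further rises within the gene were 5.02 ± 1.00 (mean signal 15.1), 5.36 ± 1.14 (12.5) and 2.63 ± 0.94 (5.33) per the authors' deposited table, 30.4 to 39.8 kb from the start. A fall of -3.81 ± 1.07 lay 3204 bp from the second of them per the authors' deposited table. Before the start, 4 sites at 9.56, 20.8, 41.6 and 43.3 kb rose by 5.86 ± 1.16, 5.11 ± 1.20, 4.14 ± 1.05 and 3.39 ± 1.32 per the authors' deposited table, the last pair of them at Nudcd3. Nearer, 1.95 kb before the start, a site had -2.83 ± 0.71 (adjusted p = 0.000245) and was lower per the authors' deposited table. Past the far end, a site on the promoter window of Ykt6, a SNARE protein gene, rose 2.00-fold (1.00 ± 0.38, mean signal 21.8) per the authors' deposited table. Of the 10 sites of Camk2b called higher, 6 lay in the flanks. Inside the gene alone the count was 4 higher and 1 lower of 8 sites, and within 10 kb of it 5 and 2 of 10.

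No site within 1 kb of an end of any of the 10 genes was called, in either direction. There were 11 such sites at 8 genes, 7 of them at an annotated start, 2 at the other end and 2 at Nav3, whose strand was not listed. Over all listed sites within 1 kb of the end of a protein-coding gene 40.2% were called. Log2 fold changes of the 11 ranged from -2.54 to 1.11 with a median of -0.07, per the authors' deposited table. Their median mean signal was 7.88, against 5.10 at member sites in gene bodies and 18.1 at all listed gene-end sites. Of the 7 member sites between 1 and 5 kb of a RefSeq promoter start, 3 were higher and 3 lower, at Map2, Kif1a, Astn1, Cacna1e and Camk2b. Those at Kif1a and Cacna1e lay near a start inside the gene, 16.7 kb and at least 155 kb from the annotated start. Ank3 and Nav3 had no listed start. The share of all listed sites called at that distance was not computed, and 55.4% of listed sites at any distance were called. No contrast with the gene ends is therefore drawn.

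In the gene bodies 44 of 111 sites were higher (39.6%) and 28 lower (25.2%), with a median log2 fold change of 0.88. Over all listed sites in gene bodies 24.7% were called higher and 33.2% lower (58.0% in either direction), with a median of -0.34. In the flanks the members had 9 higher, 9 lower and 9 uncalled of 27, where 19.4% of all flank sites were higher and 37.2% lower (56.6% in either direction). All 4 flank sites on the promoter window of another gene (Unc80, Ykt6 and a pair at Gpr35) were called, 2 in each direction, and the Gpr35 pair overlap each other. Over all listed sites touching a RefSeq promoter window 42.0% were called.

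**Figure D3:**
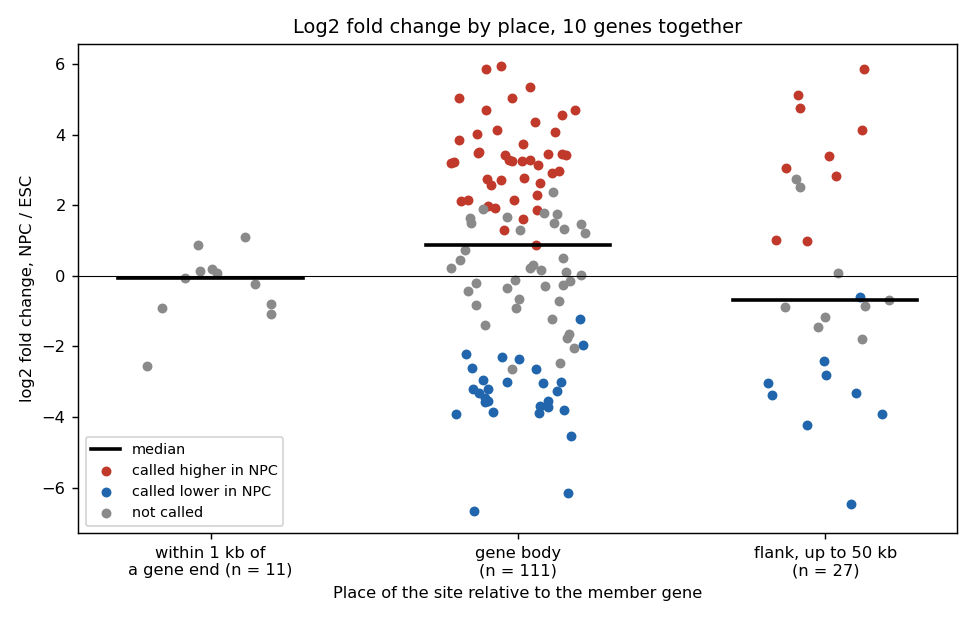
Log2 fold change (NPC over ESC) of the 149 member sites by place relative to their gene, with the median as a black bar and points spread sideways at random. The 11 sites within 1 kb of a gene end lie between -2.54 and 1.11 and none is called, while gene bodies and flanks hold called sites of both directions.

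Among strong member sites rises outnumbered falls. Of the 27 member sites in the top 25% of all listed sites by mean signal (11.4 or more), 16 were higher and 6 lower, where 32.8% of all sites of such signal were higher and 23.4% lower. Below the median signal 22 of 77 member sites were higher and 17 lower, and at or above it 31 of 72 and 20. Over all listed sites the shares were 16.7% higher and 34.9% lower below the median signal, and 28.9% and 30.3% at or above it. At member sites the median SE was 1.15 below the median signal and 0.69 at or above it. The same medians over all listed sites were 1.19 and 0.55. The median log2 fold change of member sites was 0.29 below the median signal and 0.18 at or above it. Over all listed sites it was -1.19 and 0.04.

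**Figure D4:**
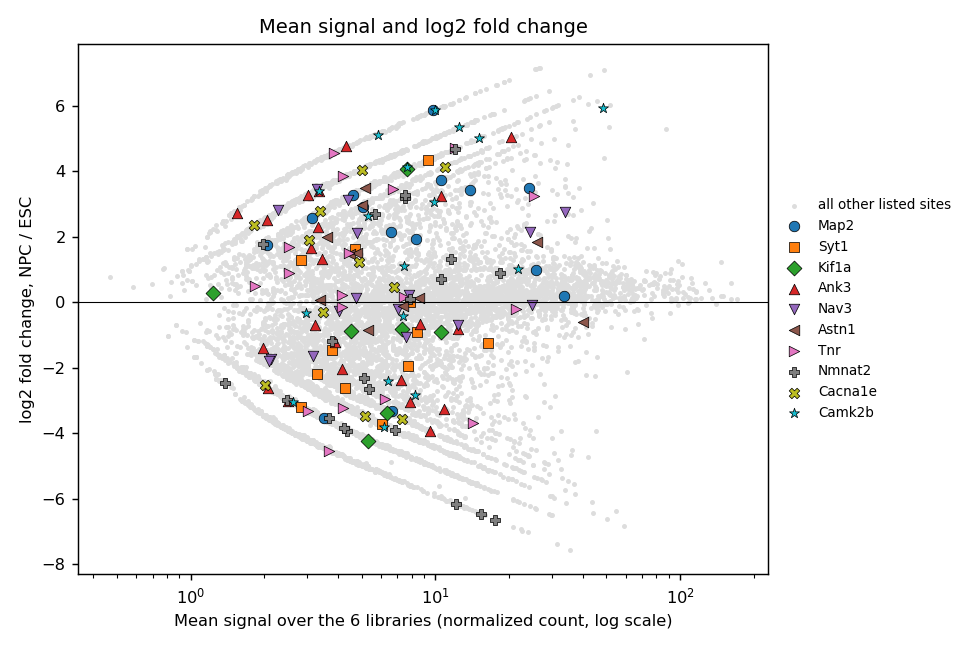
Log2 fold change (NPC over ESC) against mean signal over the 6 libraries (normalized count, log scale) for the member sites, by gene, over all other listed sites in grey. The Camk2b site at a mean signal of 48.6 and the Nmnat2 sites at 12.2 to 17.5 stand farthest from 0, and the strong sites of the Map2, Tnr and Nav3 gene ends lie close to it.

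Neighbouring called sites of a member did not always move together. All 5 overlapping pairs had the same direction, and over all listed sites 99.5% of such pairs did. Of the 13 pairs with midpoints 500 bp to 5 kb apart 7 had the same direction and 6 opposite ones (53.8% the same), 3 of the opposite pairs at Nmnat2 and 1 each at Map2, Tnr and Camk2b. Over all listed sites at that spacing 67.4% of 488 pairs had the same direction. From 5 to 50 kb the share was 66.7% of 42 member pairs and 59.2% of 2410 pairs overall. Pairs within a gene share sites and are not independent.

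Sites of genes listed from general knowledge for related roles were called in both directions in every list. Of 186 genes in 6 lists, 57 lay in the listed regions, and their 580 sites counted 145 higher and 166 lower (28.6%) with a median log2 fold change of -0.10, beside 22.8% higher and 32.6% lower and a median of -0.29 over all listed sites. Of these sites 7 also belong to a member, and some count in another list too. Postsynaptic scaffold and kinase genes had 39 higher and 27 lower of 113 sites (median 0.47), led by a site inside Adcy1, a calcium-stimulated adenylyl cyclase gene (5.54 ± 0.74), one near Grip1, a glutamate receptor scaffold (-5.33 ± 0.84), and one inside the kinase gene Fyn (4.63 ± 0.86), per the authors' deposited table. Neuronal cytoskeleton genes had 38 and 36 of 125 (median -0.06), with -3.67 ± 0.59 inside the cytoskeletal linker gene Dst, -3.94 ± 0.71 inside Nav1, a relative of Nav3, and 4.85 ± 1.01 near the actin nucleator gene Cobl per the authors' deposited table. Motor genes had 8 and 13 of 47 (median -0.14), and their leading sites were near Kif5a (-5.51 ± 1.14), near Kif21b (5.60 ± 1.17) and inside Kif26b (-4.09 ± 1.04) per the authors' deposited table.

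Vesicle and release genes had 22 higher and 29 lower of 112 sites (median -0.09), with -4.84 ± 0.63 inside Rab3gap2, 7.12 ± 1.13 inside the synapsin gene Syn3 and -3.50 ± 0.55 inside Rab3gap1 per the authors' deposited table. Channel and receptor genes had 26 and 32 of 102 (median -0.23). The leading site of the potassium channel genes Kcnj9 and Kcnj10 is the same one (3.01 ± 0.34), and that inside Kcnt2, also a potassium channel gene, had -6.38 ± 0.83 per the authors' deposited table. Initial segment and adhesion genes had 15 and 29 of 87 (median -0.84), or 33.3% lower, where 32.6% of all listed sites were lower. Their leading sites lay inside Cntnap5b (-6.42 ± 1.14), inside Adgrb3 (-5.26 ± 1.15) and near Brinp2, the last being the Astn1 site with 1.85 ± 0.36, per the authors' deposited table. Among single genes, chosen after their values were seen, Adcy1 had 6 higher and 0 lower of 11 sites and Lrrtm3 4 and 0 of 6, while Cntnap5b had 0 and 5 of 7, Pcdh15 0 and 5 of 8 and Kcnc2 1 and 7 of 12.

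The sites nearest the 50 kb limit were these. Just inside it lay 3 sites of Camk2b, 41.6, 43.3 and 49.1 kb away, with 4.14, 3.39 and -3.05 on the log2 scale per the authors' deposited table, all called. Just outside lay 2 sites near Nmnat2, 50.03 and 51.5 kb away (0.23 and 0.18), and 1 near Syt1, 51.3 kb away (-0.45), none of them called per the authors' deposited table.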

How the data were processed

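ATAC-seq libraries of ESC and NPC, 3 each, were grouped by their titles. The submitters' processing notes name mm10, BWA 2.1, Picard 2.23.8, MACS2 2.2.7, SAMtools 1.9 and DESeq2, with no role or settings, and any shift of reads for the Tn5 cut is not given in the sources used here. Per the file headers, the authors deposited for each 500 bp site a mean signal (normalized count averaged over libraries), a log2 fold change with its SE, a p-value and an adjusted p-value. How and in which cells SP1 sites were chosen is not given in the sources used here, and library depths are unknown. Calls are the authors' adjusted p below 0.05, and p-values were recomputed or readjusted here only as alternatives. The table does not state whether positions count from 0 or 1.

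Sites were assigned with Python 3.11.15 and pandas 2.3.3 to RefSeq genes of GRCm38.p6, with exons not used. Promoter windows came from RefSeq for 8 of the 10 genes. Where 305 windows overlapped on opposite strands, 305 were reverse complements, so sequences follow the gene's strand. Assignment, adjustment and calls were tested on simulated data. The members, gene lists and descriptions were chosen with earlier results of these data known. Named were all 10 genes with, at each, the site of smallest adjusted p in each direction, gene-end sites and sites in the top 25% of signal. Other sites named were chosen after their values were seen. For each related list the 3 called sites of smallest adjusted p were named, 1 per gene. Alternatives covered the threshold, window, assignment, signal, overlap, adjustment, centring and each gene left out. Leaving out sites at another protein-coding gene was added after the data were seen. Results at 1 neighbouring gene are not reported here.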

Additional observations from a re-analysis of the deposited data

How the results depend on the processing

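Across the 10 genes the counts of 53 higher and 37 lower sites stayed within 1.5 times under every alternative but 1. That limit is set on counts, which fall with the number of sites kept. With sites of at least median signal alone, 31 were higher and 20 lower of 72. These shares, 43.1% and 27.8%, were not below the 35.6% and 24.8% of all member sites. Leaving out 1 gene could not pass the limit, since no gene had more than 10 calls in either direction. Leaving out each gene in turn gave 43 to 52 higher and 27 to 37 lower, with more higher than lower each time, and medians of 0.09 to 0.46. With fold changes centred on the median of all sites, -0.29, and p recomputed, 50 were higher and 29 lower and the median became 0.49, while all listed sites had 2081 higher and 2049 lower. By gene, 41 of 240 counts moved by more than 1.5 times, and the larger direction turned in 6 of 120 combinations of gene and setting, 4 at Kif1a and 1 each at Ank3 and Nmnat2. In 9 more it became a tie, at Ank3, Cacna1e, Kif1a and, with 1 higher and 1 lower at median signal or above, Astn1. Leaving out libraries was not run, since values per library were not analysed here. No paired analysis was possible because the deposited table gives 1 comparison over all libraries. Fitted changes at sites with few or no reads in 1 cell type depend on the authors' fit, and low signal limits precision at single sites.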
